A study of Mus musculus with 6 samples.

Results

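The signalling molecules that carry a Toll-like receptor (TLR) signal from the membrane into the cytosol were examined in peripheral blood (PB) neutrophils of mice with ligature-induced periodontitis (LIP). They are 10 genes, picked by name from the 29097 genes of the deposited table: the TIR-domain adaptors *Myd88*, *Tirap*, *Ticam1* and *Ticam2*, the kinases *Irak1*, *Irak2*, *Irak3* and *Irak4*, the ubiquitin ligase *Traf6* and the inhibitor *Tollip*. All 10 were in the table, and 9 had a mean level of at least 1 FPKM, a level relative to gene length and to the total of the library, and were tested, the exception being *Ticam2*. The neutrophils, sorted after lysis of red cells and gated as CD45+CD11b+Ly6G+, came from the blood of 8-week-old male C57BL/6 wild type mice that had carried silk ligatures on their second molars for 14 d (LIP) or had no ligature over that time (Ctrl). Each group had 3 Smart-seq2 libraries, and each library pooled the neutrophils of 5 mice, so differences between single mice were not measured. Smart-seq2 amplifies full-length cDNA by PCR and carries no molecular identifiers.

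TLRs recognise microbial molecules such as lipopolysaccharide, lipoproteins and nucleic acids. On ligand binding, most of them recruit MyD88, in some cases through the bridging adaptor TIRAP, and MyD88 gathers IRAK4 and then IRAK1 or IRAK2 into a complex that activates TRAF6 and, through it, NF-kB and MAP kinases. TLR3 and, from endosomes, TLR4 use TRIF, the product of *Ticam1*, for which TRAM, the product of *Ticam2*, is the bridging adaptor of TLR4. IRAK-M, the product of *Irak3*, lacks effective kinase activity and is best known as a brake on this pathway in myeloid cells, and Tollip binds IRAK1 and dampens its activation. Neutrophils use the same machinery to respond to bacterial products and to IL-1 family cytokines, whose receptors also signal through MyD88.

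The libraries held between 52186555 and 57262379 counts, and the libraries of a group resembled each other more closely than those of different groups (SD of the log2 difference over genes, 0.38 to 0.53 within and 0.99 to 1.10 between groups). Their make-up differed as well, which touches every value below. Haemoglobin genes took 14.6% to 15% of the counts in Ctrl and 1.55% to 1.61% in LIP. Of the markers tested, all 15 of B cells and all 14 of T cells were lower in LIP under TMM scaling, as were 8 of 9 of red cells, while all 21 of mature neutrophils, 12 of 13 of monocytes and macrophages and all 9 of platelets were higher. The summed FPKM of 15 B cell markers lay between 3964 and 4247 in Ctrl and between 568 and 633 in LIP, that of 14 T cell markers between 437 and 497 against 79.1 to 92.3, and that of 21 mature neutrophil markers between 16944 and 20316 against 58085 to 63728. Monocyte and macrophage markers summed to 799.8 to 858 in Ctrl and 1015 to 1082 in LIP, platelet markers to 822 to 1085 and 1751 to 2040, NK cell markers to 494 to 576 and 426 to 469, and eosinophil and basophil markers to 11.8 to 16.1 and 14.0 to 20.7. Red cell markers summed to 180733 to 186952 in Ctrl and 19503 to 20213 in LIP. None of the listed markers in the table was at 0 in all libraries. The part of these cells in the values of the signalling genes was not tested, and in such bulk samples a change in the share of neutrophils and a change of RNA per neutrophil cannot be told apart. TMM scaling, which assumes that most genes are not changed, was the main setting, and results are given beside it for other scalings where they differ. These were the library totals, the totals without genes of other blood cells (red cell, B cell, T cell, NK cell and platelet markers and all haemoglobin, immunoglobulin and mitochondrial genes) and a scaling that holds the summed counts of the 21 mature neutrophil markers level.

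Before the levels are given, the stretches upstream of the most abundant adaptor, *Myd88*, and of the IRAK kinases that moved furthest apart, *Irak4* and *Irak1*, are shown so that their upstream sequence can be read beside the levels. They are taken from RefSeq (GRCm38.p6) and run 5′ to 3′ on the strand of the gene toward its start. Bases that the deposited table places inside the gene itself, or GENCODE M21 inside an exon of any gene, are left out. Introns of other genes are not, and the *Myd88* stretch lies within *Acaa1a*, a gene on the opposite strand (119339676 to 119350298). Capitals mark a match to the GAS motif, TTCNNNGAA, the element that STAT factors are known to bind, and lower case marks all other bases. The *Myd88* stretch is chr9:119340042-119340268, that of *Irak4* chr15:94543548-94543642 and that of *Irak1* chrX:74023937-74024171, on the minus, plus and minus strand.
Myd88: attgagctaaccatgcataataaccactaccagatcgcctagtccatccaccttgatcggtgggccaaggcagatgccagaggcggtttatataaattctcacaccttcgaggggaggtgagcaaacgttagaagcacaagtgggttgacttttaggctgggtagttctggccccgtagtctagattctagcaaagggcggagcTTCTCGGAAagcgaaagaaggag
Irak4: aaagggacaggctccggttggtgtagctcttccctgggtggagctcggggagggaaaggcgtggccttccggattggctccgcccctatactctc
Irak1: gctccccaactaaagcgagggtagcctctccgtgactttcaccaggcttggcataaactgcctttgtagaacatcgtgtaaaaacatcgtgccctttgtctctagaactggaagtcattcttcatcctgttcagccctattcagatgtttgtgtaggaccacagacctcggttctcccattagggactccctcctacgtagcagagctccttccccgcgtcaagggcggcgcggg

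Within the 250 bases before the start, only *Myd88* among the 9 genes searched had the letters of the GAS motif, as TTCTCGGAA from base -46 to base -38. *Ticam2* was not searched. Of 32851 promoters of this length, 7.02% held it. The letters GGGNNTTCC (NF-kB), TGANTCA (AP-1), TTGCNNAA (C/EBP) and AGGAAGTG (Ets), searched like the GAS motif on both strands, were in none of the 9, and in 4.98%, 6.75%, 9.56% and 3.14% of all promoters. A match is a description of letters and not of binding. As none of the others was there, no motif overlapped another.

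In PB neutrophils, *Myd88* stood far above the other signalling genes in level. Compared per gene length, it was at 76.8 ± 1.99 FPKM in Ctrl and 187 ± 5.81 FPKM in LIP (SD of 3 libraries), and it alone made up 47.4% to 56.0% of the summed FPKM of the 10 genes in the Ctrl libraries and 66.4% to 66.6% in the LIP libraries. Below it in Ctrl came *Irak1* (18.3 FPKM), *Irak2* (17.1 FPKM), *Irak3* (13.9 FPKM), *Tollip* (9.86 FPKM), *Irak4* (6.10 FPKM), *Traf6* (5.08 FPKM), *Tirap* (4.70 FPKM), *Ticam1* (1.19 FPKM) and *Ticam2* (0.556 FPKM). In this order only *Myd88* from *Irak1* and *Tirap* from *Ticam1* were apart in all libraries, and every other pair of neighbours overlapped. In LIP the order after *Myd88* was *Irak3* (18.9 FPKM), *Tollip* (15.7 FPKM), *Irak2* (15.3 FPKM), *Tirap* (13.8 FPKM), *Irak4* (12.5 FPKM), *Irak1* (11.5 FPKM), *Traf6* (3.51 FPKM), *Ticam1* (2.10 FPKM) and *Ticam2* (0.942 FPKM). There *Myd88* was apart from *Irak3*, *Irak1* from *Traf6* and *Traf6* from *Ticam1*, while the 6 genes from *Irak3* to *Irak1* formed a run in which each overlapped the next. *Irak1* held the second place in Ctrl and the seventh in LIP, and *Tirap* the eighth in Ctrl and the fifth in LIP.

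**Figure D1:**
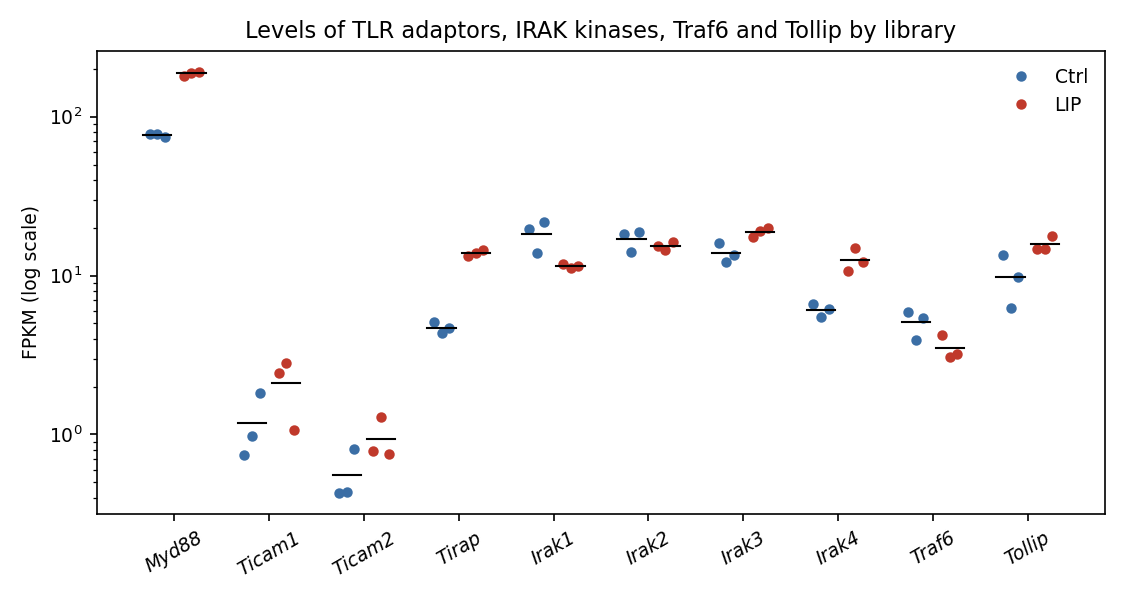
FPKM of the 10 genes on a log axis, with a point for each of the 3 Ctrl and 3 LIP libraries and a line at each group's mean. *Myd88* is highest in both groups, at 76.8 and 187 FPKM, and *Ticam1* and *Ticam2* are lowest.

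Of the 9 genes tested, 5 were higher in LIP and none was lower by the quasi-likelihood test of edgeR (adjusted p under 0.05, Benjamini-Hochberg over 10440 genes), with 3 higher and 3 lower when genes of other blood cells were left out of the library totals and 0 higher and 7 lower under a scaling by the mature neutrophil markers. The 5 were *Myd88*, *Tirap*, *Irak3*, *Irak4* and *Tollip*. Before adjustment, *Ticam1* (raw edgeR p of 0.0363, adjusted p = 0.0640) and, as the single gene toward lower values, *Irak1* (raw edgeR p of 0.0463, adjusted p = 0.0786) lay under 0.05 as well. Among all genes tested, 53.6% were called under TMM, 26.5% higher and 27.2% lower. With genes of other blood cells left out of the totals, 12.8% were higher and 51.7% lower, and with the neutrophil scaling 0.354% and 90.1%. The same 5 genes had no overlap between the groups, against 63.4% of all genes tested. The median log2 fold change of the 9 genes was 0.99, and that of all genes tested was -0.09. DESeq2 called 6 of the 9 genes higher and none lower, against 2989 higher and 2817 lower of all 10440 genes.

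*Myd88* (ENSMUSG00000032508, chromosome 9 from 119335934 to 119340041, GRCm38), which encodes the adaptor of most TLRs and of the IL-1 receptor family, was at 191, 198 and 187 CPM in the Ctrl libraries and at 562, 583 and 591 CPM in the LIP libraries (CPM, counts scaled by TMM to a common library size). All 3 LIP libraries were far above all Ctrl libraries, and the spread within each group was small. The log2 fold change was 1.59 with a standard error of 0.0896 (edgeR, adjusted p = 3.90e-07), a 3.02-fold difference that lay at the 94.5th percentile of all genes tested. It was 1.27 with library totals, 1.00 with totals that leave out genes of other blood cells and -0.31 with scaling on the neutrophil markers (adjusted p = 0.0113, edgeR), where the median of all genes was -2.00. *Acaa1a*, a peroxisomal thiolase gene on the opposite strand, shares 290 of the 2576 exonic bases of *Myd88* and went from 15.3 ± 0.463 to 20.7 ± 2.43 FPKM (SD of 3 libraries). Whether reads of one entered the count of the other was not tested.

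*Tirap* (ENSMUSG00000032041, chromosome 9 from 35184551 to 35200291), the adaptor that brings MyD88 to TLR2 and TLR4, changed most of the 9 genes. It was at 23.9, 21.1 and 22.4 CPM in Ctrl and at 78.5, 81.4 and 85.5 CPM in LIP, with no overlap between the groups. The log2 fold change was 1.86 with a standard error of 0.134 (edgeR, adjusted p = 1.74e-06), at the 97.3rd percentile of all genes. It was the only one of the 5 genes called higher that did not pass in the other direction when libraries were scaled on the neutrophil markers, at -0.04 (edgeR, adjusted p = 0.802), with a standard error of 0.16. On the opposite strand, *Gm39318* (446 of 4929 exonic bases, mean level 0.031 FPKM) and *Srpr* (39 bases) share exons with it.

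The TRIF arm had the lowest levels of the 10 genes and varied widely between the libraries of a group. *Ticam1* (ENSMUSG00000047123, chromosome 17 from 56269319 to 56276786), which encodes TRIF, had 2.13, 2.91 and 5.33 CPM in Ctrl and 8.82, 10.04 and 3.81 CPM in LIP, so that LIP replicate 3 lay below Ctrl replicate 3. These values rest on 128 to 512 counts a library. Its log2 fold change was 1.13 with an interval from 0.09 to 2.17 (95%, adjusted p = 0.0640 from edgeR), and it passed without Ctrl replicate 3 (1.59, adjusted p = 0.0329 from edgeR), without LIP replicate 3 (1.45, adjusted p = 0.0212 from edgeR) and in DESeq2 (adjusted p = 0.0315). It did not pass with library totals (0.81, edgeR, adjusted p = 0.161), with totals that leave out genes of other blood cells (0.54, edgeR, adjusted p = 0.333) or in limma on log2(FPKM + 1) (0.49, adjusted p = 0.151), and its value turned to -0.77 with scaling on the neutrophil markers (edgeR, adjusted p = 0.138). *Ticam2* (ENSMUSG00000056130, chromosome 18 from 46557291 to 46574533), which encodes TRAM, had 2.37, 2.49 and 4.57 CPM in Ctrl and 5.53, 8.96 and 5.23 CPM in LIP, each LIP library above each Ctrl library on this scale. In FPKM, which rests on the library totals, the groups overlapped, with Ctrl replicate 3 at 0.807 FPKM above LIP replicates 1 and 3 at 0.786 and 0.751 FPKM. In the fits with a looser filter it had a log2 fold change of 1.10 (interval 0.15 to 2.06, adjusted p = 0.0762 from edgeR with filterByExpr) and did not pass. It shares 838 of its 5792 exonic bases with *Tmed7* on the same strand, whose mean level was 6.41 FPKM, and its low values are uncertain for that reason.

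As shares of the summed adaptor FPKM, which no scaling of a library changes, 1 adaptor gene of 4 lay apart in the groups. How often such shares lie apart in other gene families was not computed. *Myd88* took 92.3% ± 1.06 of the Ctrl level and 91.7% ± 0.401 of the LIP level (SD of 3 libraries, p = 0.5 in an exact two-sided permutation test). *Tirap* took 6.06%, 5.17% and 5.70% in Ctrl and 6.69%, 6.66% and 6.97% in LIP, a difference of 1.13 percentage points with no overlap between groups (exact permutation p = 0.1, the smallest that 3 libraries against 3 can give, and 0.16 after adjustment over the 8 shares tested). *Ticam1* took 1.43% ± 0.711 and 1.03% ± 0.456, and *Ticam2* 0.671% ± 0.274 and 0.461% ± 0.141, with overlapping groups (exact permutation p = 0.6 and p = 0.3).

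Among the IRAK kinases, *Irak4*, at the head of the complex, and *Irak3*, the brake, were higher in LIP under TMM and *Irak1* and *Irak2* did not pass, while *Irak1* was lower in several other settings given below, *Irak3* did not pass and *Irak2* was lower with totals that leave out genes of other blood cells, and all 4 were lower with scaling on the neutrophil markers. *Irak4* (ENSMUSG00000059883, chromosome 15 from 94543643 to 94568306), whose product phosphorylates IRAK1, was at 31.9, 27.2 and 29.9 CPM in Ctrl and at 64.3, 89.4 and 72.9 CPM in LIP. LIP replicate 2 was the highest, and no LIP library came near the Ctrl libraries. The log2 fold change was 1.35 with a standard error of 0.159 (edgeR, adjusted p = 5.26e-05), 0.76 with totals that leave out genes of other blood cells (edgeR, adjusted p = 0.00224) and -0.57 with scaling on the neutrophil markers (edgeR, adjusted p = 0.00995).

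*Irak3* (ENSMUSG00000020227, chromosome 10 from 120141648 to 120202130), which encodes IRAK-M, was at 56.5, 43.8 and 48.4 CPM in Ctrl and at 78.0, 83.7 and 88.0 CPM in LIP. The groups did not overlap, but the difference was the smallest of the 5 called, at 0.75 on the log2 scale with a standard error of 0.136 (edgeR, adjusted p = 0.00102). It passed with library totals (0.43, adjusted p = 0.0255 from edgeR) and not with totals that leave out genes of other blood cells (0.16, adjusted p = 0.342 from edgeR), and it turned to -1.16 with scaling on the neutrophil markers (edgeR, adjusted p = 7.73e-05). *Tmbim4*, on the opposite strand, shares 192 of its 3676 exonic bases and went from 32.4 ± 3.65 to 47.2 ± 1.01 FPKM (SD of 3 libraries). *Gm47009*, also on the opposite strand, shares 28 exonic bases with *Irak3*.

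*Irak1* (ENSMUSG00000031392, chromosome X from 74013914 to 74023918), the kinase that links IRAK4 to TRAF6, had 88.0, 64.2 and 99.6 CPM in Ctrl and 67.3, 63.4 and 64.9 CPM in LIP. The Ctrl libraries were spread widely, and Ctrl replicate 2 lay within the narrow range of the LIP libraries. The log2 fold change was -0.36 with an interval from -0.72 to -0.01 (95%, adjusted p = 0.0786 from edgeR). It was called lower in several other settings, among them the fit without Ctrl replicate 2 (-0.51, adjusted p = 0.00683 from edgeR), library totals (-0.69, adjusted p = 0.00552 from edgeR) and limma on log2(FPKM + 1) (-0.61, adjusted p = 0.00998). With totals that leave out genes of other blood cells it was -0.96 (edgeR, adjusted p = 0.000614). With scaling on the neutrophil markers it was -2.27 (edgeR, adjusted p = 1.68e-06). The microRNA genes *Mir5132* and *Mir718*, on the same strand, share 71 and 70 of the 4716 exonic bases of *Irak1*. *Irak2* (ENSMUSG00000060477, chromosome 6 from 113638467 to 113695026), whose product sustains the signal in place of IRAK1, had 77.1, 60.8 and 81.0 CPM in Ctrl and 81.5, 76.1 and 86.0 CPM in LIP, with overlapping groups. Its log2 fold change of 0.16 (interval -0.15 to 0.46, adjusted p = 0.366 from edgeR) turned to -0.17 with library totals and to -0.44 with totals that leave out genes of other blood cells. *Gm43963*, on the opposite strand, shares 196 of the 4412 exonic bases of *Irak2*. It had a mean level of 2.46 FPKM and a log2 fold change of 0.92 (edgeR, adjusted p = 0.0378).

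**Figure D2:**
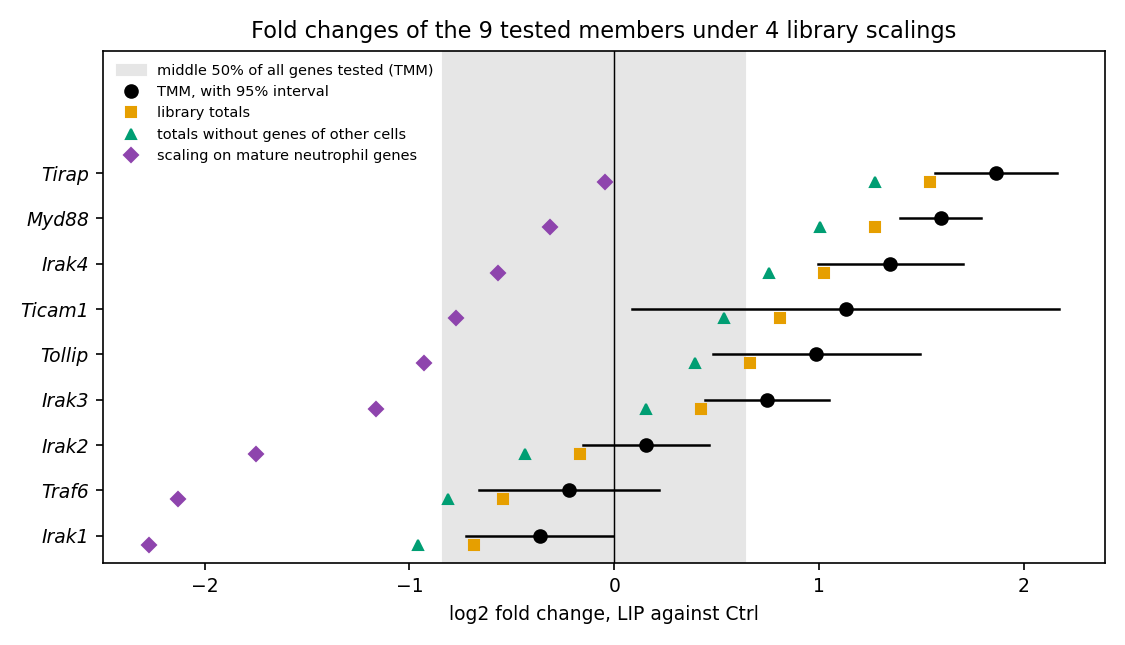
Log2 fold changes of the 9 tested genes, LIP against Ctrl, with the TMM value and its 95% interval as a black point and bar, and the values under 3 other scalings as coloured symbols. The grey band holds the middle 50% of all genes tested under TMM, from -0.84 to 0.64. A scaling moves all genes alike, so the order from *Irak1* (-0.36) to *Tirap* (1.86) is the same under each, while the sign is not.

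The shares of the IRAK genes lay apart between the groups, although no test passed after adjustment. These shares do not depend on the scaling. *Irak1* made up 32.2%, 30.4% and 36.03% of the summed IRAK FPKM in Ctrl and 21.3%, 18.9% and 19.2% in LIP, a difference of -13.1 percentage points. *Irak4* made up 10.98%, 12.1% and 10.2% in Ctrl and 19.2%, 24.99% and 20.3% in LIP, a difference of 10.4 points. *Irak3* went from 25.2% ± 2.40 to 32.4% ± 0.873 and *Irak2* from 30.8% ± 0.559 to 26.3% ± 1.88 (SD of 3 libraries). For all 4 kinases the 3 LIP libraries lay on the same side of the 3 Ctrl libraries (two-sided exact permutation test, p = 0.1 each, the smallest possible, and 0.16 after adjustment over the 8 shares). Of all genes tested, 63.4% had no overlap between the groups in CPM scaled by TMM. How often shares within other gene families lie apart was not computed. The 4 shares of a library sum to 100%, so they are not independent of each other.

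The same is seen in ratios of FPKM within a library. *Irak3* was at 0.825, 0.877 and 0.624 times the level of *Irak1* in the Ctrl libraries and at 1.49, 1.69 and 1.74 times in the LIP libraries. *Irak4* was at 0.341, 0.398 and 0.282 times the level of *Irak1* in Ctrl and at 0.8997, 1.33 and 1.06 times in LIP. The ratio of *Myd88* to *Irak4*, the first kinase it binds, overlapped between the groups, at 11.7, 14.2 and 12.2 in Ctrl and 17.0, 12.7 and 15.8 in LIP. The summed FPKM of B cell, T cell and red cell markers was higher in Ctrl in all libraries, as given above. The part of these cells in the *Irak1* share was not tested.

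**Figure D3:**
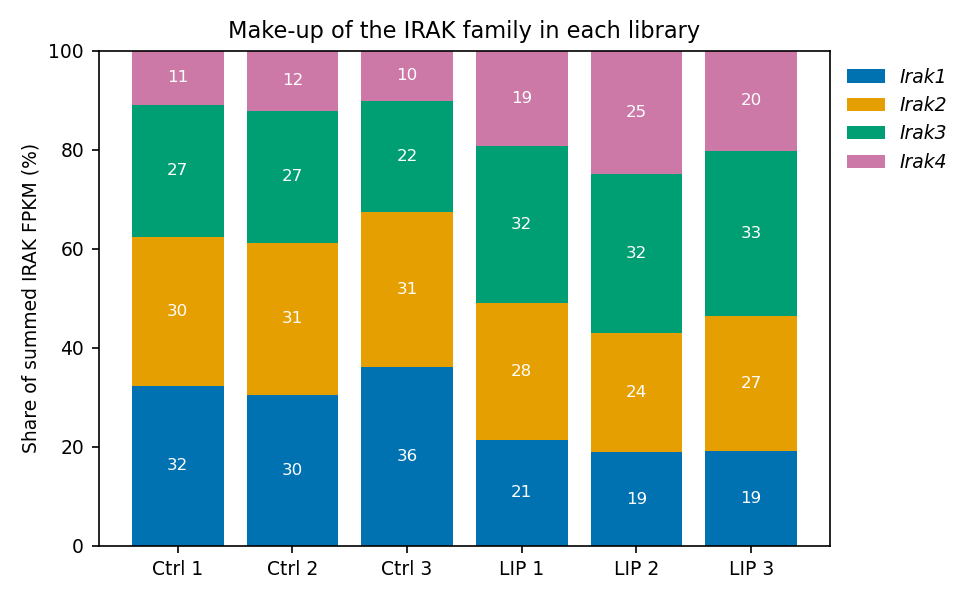
Share of each IRAK gene in the summed IRAK FPKM (percent), with a stacked bar for each library. *Irak1* takes 30.4% to 36.03% of the Ctrl bars and 18.9% to 21.3% of the LIP bars, and *Irak4* 10.2% to 12.1% and 19.2% to 24.99%.

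*Traf6* (ENSMUSG00000027164, chromosome 2 from 101678429 to 101701669), the ubiquitin ligase on which the MyD88 pathway converges, had 44.3, 30.7 and 41.3 CPM in Ctrl and 40.3, 29.2 and 30.3 CPM in LIP. The groups overlapped, and the log2 fold change was -0.22 (interval -0.66 to 0.22, adjusted p = 0.367 from edgeR). With library totals it was -0.54 and was called lower (edgeR, adjusted p = 0.0397), as it was at -0.81 with totals that leave out genes of other blood cells (edgeR, adjusted p = 0.00497) and at -2.13 with scaling on the neutrophil markers (edgeR, adjusted p = 9.52e-06). The FPKM of *Myd88* was 13.2, 19.8 and 13.8 times that of *Traf6* in the Ctrl libraries and 42.7, 61.2 and 59.7 times in the LIP libraries.

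*Tollip* (ENSMUSG00000025139, chromosome 7 from 141874813 to 141918507), the inhibitor that binds IRAK1, had 65.35, 31.1 and 48.2 CPM in Ctrl and 90.3, 89.4 and 107 CPM in LIP. The Ctrl libraries were spread over a wide range, with Ctrl replicate 2 lowest, and all lay below the LIP libraries. The log2 fold change was 0.99 with a standard error of 0.229 (edgeR, adjusted p = 0.00437), 0.66 with library totals (edgeR, adjusted p = 0.0354) and 0.40 with totals that leave out genes of other blood cells (edgeR, adjusted p = 0.157). With scaling on the neutrophil markers it turned to -0.93 and was called lower (edgeR, adjusted p = 0.00728).

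Under each scaling the 9 genes were read against the same shift of all genes. With library totals, 5 of the 9 were higher and 2 lower (18.4% and 39.7% of all genes), with totals that leave out genes of other blood cells 3 were higher and 3 lower (12.8% and 51.7% of all genes), and with scaling on the neutrophil markers none was higher and 7 were lower (0.354% and 90.1% of all genes). The median of all genes was -0.42, -0.69 and -2.00 under these scalings. Relative to the median of all genes under TMM, *Tirap* lay 1.96 above, *Myd88* 1.69 above, *Irak4* 1.44 above, *Ticam1* 1.22 above, *Tollip* 1.08 above, *Irak3* 0.84 above and *Irak2* 0.25 above on the log2 scale, *Traf6* at -0.12 and *Irak1* at -0.27. The median of the 21 neutrophil markers themselves was 1.86 under TMM, which *Tirap* alone among the 9 genes reached.

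The other genes of the pathway were taken from 7 lists written by hand, with the members left out, and counts are beside the 26.5% of all genes that were higher and the 27.2% that were lower. Of the 68 genes tested, 38 were higher and 9 lower in LIP under TMM. They numbered 23 and 22 with totals that leave out genes of other blood cells and 1 and 59 with scaling on the neutrophil markers. Over all genes tested, 12.8% were higher and 51.7% lower under the former scaling and 0.354% and 90.1% under the latter. The median log2 fold change of the 68 genes was 0.52 under TMM. Of 7 TLR genes tested, 6 were higher and none lower under TMM (median 1.81), of which *Tlr4* alone remained higher with scaling on the neutrophil markers, and the other 5 of the 12 listed were below 1 FPKM. *Tlr4*, the lipopolysaccharide receptor, went from 13.8 ± 4.12 to 82.5 ± 2.45 CPM (SD of 3 libraries), or by 2.58 on the log2 scale (edgeR, adjusted p = 4.54e-06). *Tlr6* and *Tlr13* changed by 1.92 and 1.89, and *Tlr2*, the most abundant TLR at a mean of 219 FPKM, by 1.81.

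The genes of the list of TLR co-receptors and chaperones were divided, with 4 of 9 higher and 3 lower (median 0.14). *Cd14*, the lipopolysaccharide co-receptor, went from 1393 ± 58.6 to 4296 ± 45.2 CPM (SD of 3 libraries), and *Lbp*, whose product carries lipopolysaccharide to CD14, and *Ly96*, which encodes the TLR4 partner MD-2, changed by 1.24 and 1.11. *Lbp* was low, at 0.974 FPKM in Ctrl and 1.88 FPKM in LIP. With totals that leave out genes of other blood cells, neither *Lbp* (0.66, edgeR, adjusted p = 0.140) nor *Ly96* (0.52, edgeR, adjusted p = 0.0679) passed. The 3 lower genes were *Cd180* (-1.11), *Ly86* (-0.97) and *Hsp90b1* (-0.71). B cell markers were lower in LIP as well, and the part of B cells in these values was not tested. Of the MyD88-using IL-1 family receptor chains, 2 of 3 tested were higher, *Il1rap*, the shared chain of the IL-1 and IL-33 receptors, by 2.33 and *Il18rap* by 1.496. The list of Pellino ligases and other IRAK partners was put together by hand, and binding to IRAK proteins was not tested. Of its 5 genes tested, 3 were higher and none lower, *Trafd1* by 1.11, *Tifab* by 0.96 and *Pik3ap1* by 0.53. None of these 3 is a Pellino ligase. *Peli1*, the only Pellino ligase tested and a ubiquitin ligase for IRAK proteins, had -0.19 (edgeR, adjusted p = 0.208). *Peli1* was called lower with library totals (-0.51, edgeR, adjusted p = 0.00583), with totals that leave out genes of other blood cells (-0.78, edgeR, adjusted p = 0.000355), with scaling on the neutrophil markers (-2.10), without genes under 5 FPKM (-0.36, edgeR, adjusted p = 0.0255) and in both limma fits. It had 28.8 FPKM in Ctrl and 20.4 FPKM in LIP, the highest mean over all libraries in this list, although *Trafd1* was above it in LIP at 30.4 FPKM.

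Downstream of TRAF6 the picture was mixed as well. Of 15 genes of the TAK1, IKK and MAP kinase branch, 6 were higher and 2 lower (median -0.05). *Map2k3* and *Map2k4*, which encode MAP kinase kinases, changed by 1.39 and 1.10, and *Ecsit*, whose product binds TRAF6, by -1.66 (edgeR, adjusted p = 0.00218). Of 11 genes of the TRIF branch, 4 were higher and 2 lower, among them *Tbkbp1* and *Ripk1* with 1.29 and 1.202 and *Ikbke*, a kinase that activates IRF3, with -1.47, while *Irf5*, highest of the branch by its mean FPKM over all libraries but below *Irf7* in LIP (51.9 against 60.2 FPKM), had 0.20 (edgeR, adjusted p = 0.128). Negative regulators of TLR signalling were higher in 13 of 18 cases and lower in 2 under TMM, with a median of 0.84. Of all genes tested, 26.5% were higher and 27.2% lower. *Nfkbia*, which encodes the NF-kB inhibitor IkBa, went from 3566 ± 349 to 10300.4 ± 351 CPM (SD of 3 libraries), *Dusp1*, a MAP kinase phosphatase, had a log2 fold change of 1.59 and *Socs3* one of 1.82. These genes stayed higher with totals that leave out genes of other blood cells. With scaling on the neutrophil markers, *Nfkbia* (-0.37, edgeR, adjusted p = 0.000362) and *Dusp1* (-0.32, edgeR, adjusted p = 0.00137) were called lower. *Socs3* was there at -0.085 (edgeR, adjusted p = 0.565).

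Genes whose deposited Gene Ontology annotation names a TLR, MyD88-dependent or TRIF-dependent pathway were counted as well, again without the members. Under TMM, 37 of 72 tested were higher and 12 lower (median 0.59), against 26.5% and 27.2% of all genes tested. Counts of this list under the other scalings were not made. Beside genes named above, *App* was among the largest changes, at 2.43, and *Cd40*, a receptor that B cells also carry, was the lowest of those named, from 6.20 ± 0.933 FPKM in Ctrl to 0.989 ± 0.558 FPKM in LIP (SD of 3 libraries). This list and the hand-written ones share genes.

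**Figure D4:**
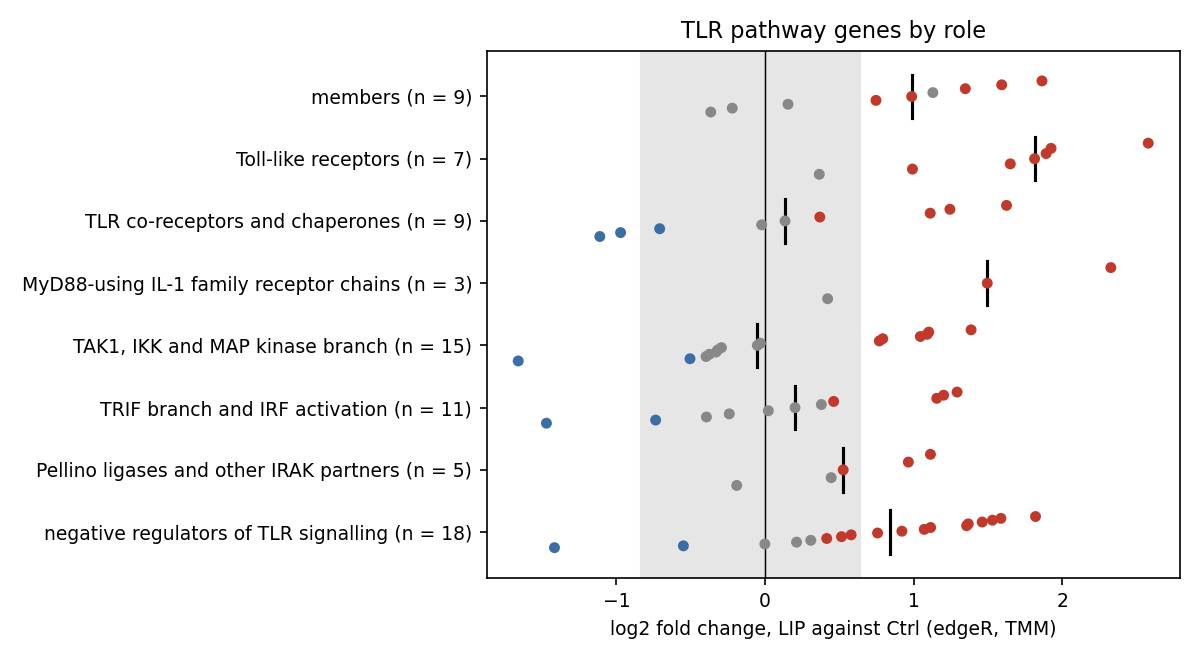
Log2 fold changes (edgeR, TMM) of the 9 tested members and of the other pathway genes by role, with a point per gene, red for genes called higher in LIP, blue for genes called lower and grey for neither (adjusted p under 0.05). Black lines are medians, from -0.05 for the TAK1, IKK and MAP kinase branch to 1.81 for the TLRs, and the grey band holds the middle 50% of all genes tested. With scaling on the neutrophil markers, 1 of the 68 other genes was higher and 59 were lower, against 0.354% and 90.1% of all genes tested.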

How the data were processed

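RNA of sorted PB neutrophils was measured in 6 libraries (3 Ctrl, 3 LIP), grouped by their titles. The authors deposited, for each gene, counts that are not normalized and FPKM values. Per the labels, cutadapt 1.9, FastQC and GRCm38 were used. The aligner, the counting tool and the use of strand are not given in the sources used here. Where 1 of 50 names stood on several rows, the row of highest mean FPKM was kept. The quasi-likelihood test of edgeR 4.0.16 (R 4.3.3, TMM, no block, Benjamini-Hochberg) was run on 10440 genes whose FPKM averaged at least 1. Standard errors were taken from the F statistic, and intervals are 95%. Alternatives were other scalings and filters, limma 3.58.1, DESeq2 1.42.0, a replicate block and each library left out. Shares were compared by exact permutation tests. Named genes are the members, the genes that share exonic bases with them and, per pathway list, the 3 largest changes called and the gene of highest mean FPKM. *Irf7* and the 3 lower genes of the co-receptor and chaperone list are named beside them. The members and lists were chosen with earlier results of these data known. Same-numbered libraries come from different mice, and their deviations from the group means correlated at 0.0212, 0.0562 and 0.0364, so they were not taken as pairs. The edgeR step was tested on simulated data. PCR copies count as reads, and p-values measure the spread between pools of mice.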

Additional observations from a re-analysis of the deposited data

How the results depend on the processing

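The 5 genes called higher kept their direction in all alternatives other than scaling on the neutrophil markers. Members higher and lower numbered 5 and 2 with library totals, 3 and 3 with totals that leave out genes of other blood cells and 0 and 7 with scaling on neutrophil markers. A single member was lower when genes under 5 FPKM were left out and in limma with a pseudocount of 1 or 0.1. Leaving out each library gave 5 to 6 members higher and 0 to 1 lower. Over all 10440 genes, 2419 to 2615 were higher and 2255 to 2770 lower in those fits. Of the other pathway genes, 16, 22 and 59 were lower under the 3 scalings and 14 in both limma fits. Under the last 2 scalings, 23 and 1 were higher. Over all genes tested, 39.7%, 51.7% and 90.1% were lower under the 3 scalings, and 12.8% and 0.354% were higher under the last 2. With scaling on neutrophil markers, the log2 fold changes were -0.31 for *Myd88*, -0.77 for *Ticam1*, -0.043 for *Tirap*, -1.75 for *Irak2*, -1.16 for *Irak3*, -0.57 for *Irak4* and -0.93 for *Tollip*. There they were -0.020 for *Tlr13*, -0.10 for *Tlr2*, -0.28 for *Cd14*, -0.65 for *Lbp*, -0.79 for *Ly96*, -0.41 for *Il18rap*, -0.52 for *Map2k3*, -0.81 for *Map2k4*, -0.61 for *Tbkbp1*, -0.71 for *Ripk1*, -1.70 for *Irf5*, -0.79 for *Trafd1*, -0.96 for *Tifab*, -1.38 for *Pik3ap1*, -0.085 for *Socs3*, -0.32 for *Dusp1* and -0.37 for *Nfkbia*. With library totals *Irak2* had -0.17 and *Irf5* -0.12, in limma -0.14 and -0.10 with either pseudocount, and with totals that leave out genes of other blood cells *Irak2* had -0.44, *Irf5* -0.39 and *Pik3ap1* -0.064. Without genes under 5 FPKM *Irak2* had -0.012, and 1768 genes of 5328 were higher and 1869 lower. Over all genes limma called 2010 higher and 4249 lower with a pseudocount of 1 and 1974 and 4144 with 0.1, against 2766 and 2835 in edgeR. The scalings move all genes by a constant, and the cause of the difference in composition was not tested. The *Ticam1* share difference lay between -0.67 and 0.00397 percentage points with each library left out, the latter without Ctrl replicate 3. With the replicate block 5 members were higher and 0 lower, and of the other pathway genes 37 and 9, with no call of a member changed. Over all genes that fit called 2724 higher and 2822 lower. *Ticam1* and *Ticam2* were low, at 128 to 512 counts a library. *Ticam1* varied widely within groups, at 128, 174 and 311 counts in Ctrl and 443, 512 and 180 in LIP.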
